A study of Canis lupus familiaris with 22 samples.

Results

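Cytotoxic lymphocytes and natural killer (NK) cells kill infected or altered cells. They store perforin and granzymes in granules, release them onto a bound target and decide through activating and inhibitory surface receptors whether to do so. The 10 genes described here are 5 granule effectors (GZMA, GZMB, GZMK, PRF1 and NKG7), 4 surface receptors (KLRB1, KLRD1, NCR1 and NCR3) and the transcription factor EOMES, which directs the programme of NK cells and of cytotoxic CD8+ T cells. They were read from every array probe for a transcript whose gene name in the scanner files equalled one of these symbols. This rule found 8 of the 43603 probes, for 7 of the 10 genes. KLRD1 had 2 probes, and GZMB, KLRB1 and NKG7 had none under that name.

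The study asked how the blood transcriptome of dogs with canine atopic dermatitis (cAD), an itching allergic skin disease, differs from that of healthy dogs and how it stands after allergen-specific immunotherapy (ASIT), in which allergen extracts are injected under the skin in rising doses. There were 8 healthy control dogs (ctrl) and 7 cAD patients, each sampled before treatment (0) and again when ASIT had run for 6 months (6 months), with 1 array for each sample. The dogs were client-owned adults of mixed breeds and both sexes, and the controls were blood donors. No group was matched for breed or sex in the sources used here, so the groups differ in more than the disease. RNA came from venous blood collected into a stabilizing tube; the labels call it whole blood and the methods name peripheral blood nuclear cells.

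Each array compared the RNA of 1 dog, labelled with Cy5, with a common reference of RNA pooled from 13 further healthy dogs, labelled with Cy3. The measure is the log2 of the Cy5 to Cy3 ratio, so that 0 means the level of the pool. Signal above background was not alike in the groups. Cy5 was well above background on 83.7% to 92.2% of the spots in ctrl, 53.3% to 87.5% at 0 and 57.2% to 81.6% at 6 months. Ctrl arrays lay on slides 1 and 2, scanned on a day of their own, so slide, scan day and group cannot be told apart in either comparison with ctrl. Of the dogs with cAD, dogs 1 to 3 had both arrays on 1 slide and dogs 4 to 7 had their later array on slide 6, which held no earlier array. Defining markers of blood cells were found: Cy5 was well above background on all 22 arrays for 9 of 9 T cell genes, 7 of 7 monocyte genes, 8 of 9 neutrophil genes and 4 of 7 B cell genes tested.

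The probes are 60 bases long, and 5 of them are shown because the results below rest on them. Positions are on canFam3.1, as the files give them. Exon and UTR annotation for this build was not used here, but all 8 probes read without a stop codon in at least 1 frame. GZMA and GZMK encode related granule proteases, and their probes aligned over 46 bases, of which 28 were identical (60.9%). The capitals mark these identical bases. The longest identical run between both probes was 5 bases.

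GZMA, chr2:42498382-42498441, plus strand: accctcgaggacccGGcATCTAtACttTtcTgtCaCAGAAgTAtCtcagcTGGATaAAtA

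GZMK, chr4:60559476-60559535, minus strand: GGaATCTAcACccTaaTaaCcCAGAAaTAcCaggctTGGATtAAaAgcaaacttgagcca

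The 2 KLRD1 probes lie 1929 bases apart on the minus strand and share no run above 5 bases, so they read the transcript at separate places. The EOMES probe is given because its difference from ctrl after ASIT had an unadjusted p under 0.05 while its signal there lay near background. No base is in capitals in these 3.

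KLRD1, chr27:35701212-35701271, minus strand: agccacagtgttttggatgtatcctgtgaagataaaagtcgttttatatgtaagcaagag

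KLRD1 second probe, chr27:35703201-35703260, minus strand: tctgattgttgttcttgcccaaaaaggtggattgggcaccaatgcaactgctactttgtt

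EOMES, chr23:16511187-16511246, plus strand: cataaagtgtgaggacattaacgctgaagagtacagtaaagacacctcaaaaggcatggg

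The other probes are those of PRF1 (chr4:21498317-21498376, minus strand), NCR1 (chr1:102687790-102687849, minus strand) and NCR3 (chr12:1087163-1087358, minus strand). The NCR3 probe covers a genomic span of 196 bases with its 60 bases.

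All genes but NCR1 gave signal on most arrays. GZMA, GZMK, PRF1, KLRD1 with both probes, and NCR3 were well above background in Cy5 and in Cy3 on all 22 arrays, and no member spot was saturated. EOMES was well above background in Cy5 on 17 arrays, made up of 8 of 8 in ctrl, 6 of 7 at 0 and 3 of 7 at 6 months. NCR1, which encodes the activating NK receptor NKp46, was well above background in Cy5 on 7 arrays, of which 6 were in ctrl, 1 was at 0 and none was at 6 months. Its reference signal was above background on 1 array. The NCR1 ratios are therefore ratios of 2 weak signals. The probe entered the fit through the ctrl arrays, and NCR1 is left out of the counts of genes that follow.

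**Figure D1:**
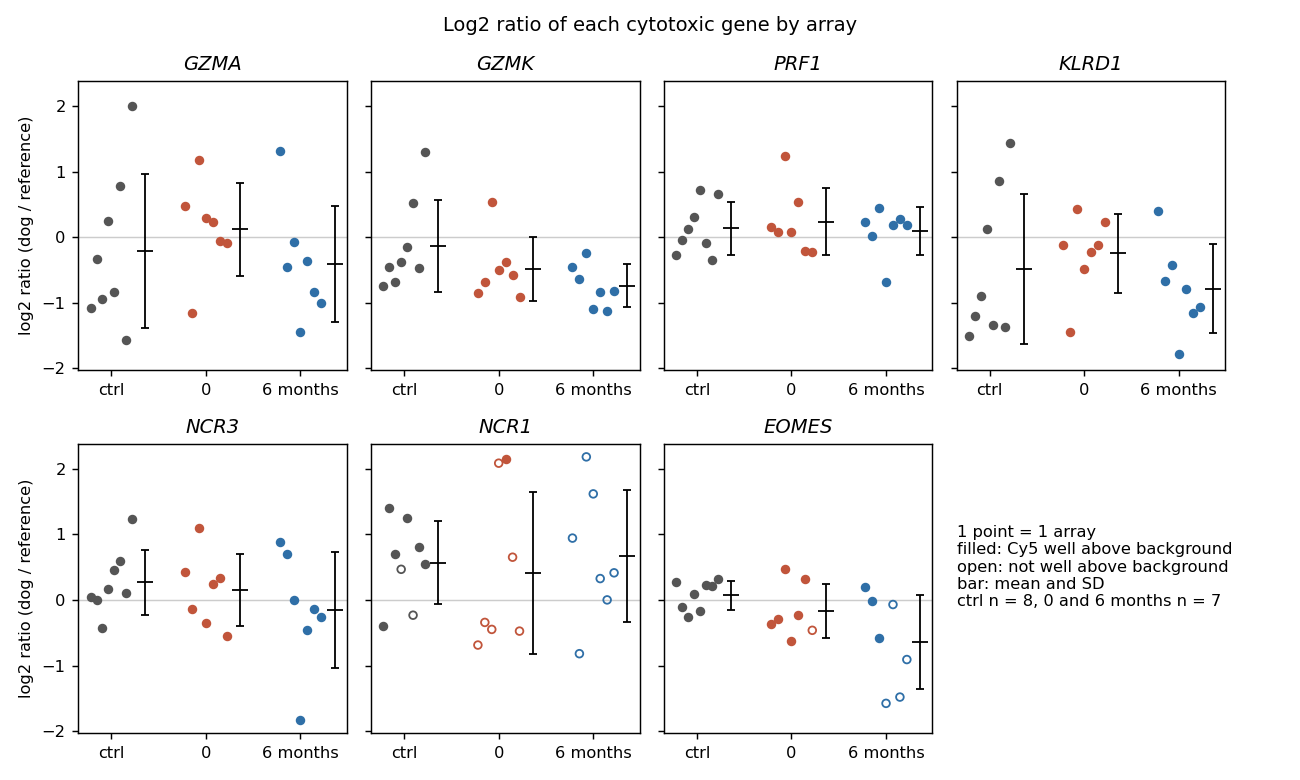
Log2 ratio of dog to reference (y axis) for the brightest probe of each gene in ctrl (n = 8), at 0 (before ASIT, n = 7) and at 6 months (after ASIT, n = 7), 1 point per array, with mean and SD as bars. Open points are arrays on which Cy5 was not well above background; they make up 15 of the 22 NCR1 points, and the groups overlap for every gene.

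Granzyme A, a protease that enters target cells through perforin pores, spread widely between dogs. Its log2 ratio ran from -1.57 to 2.00 in ctrl (median -0.59), from -1.16 to 1.17 at 0 (median 0.23) and from -1.45 to 1.31 at 6 months (median -0.46). The highest and the lowest value over all arrays both belonged to healthy dogs. Group means were -0.22 ± 1.17 (SD, n = 8), 0.12 ± 0.71 (n = 7) and -0.41 ± 0.88 (n = 7). The 2 patient groups lay inside the range of the healthy dogs.

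Granzyme K, a protease typical of memory-like cytotoxic T cells, had a log2 ratio from -0.75 to 1.29 in ctrl (median -0.42), from -0.92 to 0.53 at 0 (median -0.57) and from -1.12 to -0.23 at 6 months (median -0.81). All 7 values after ASIT were under 0, and 2 of the 7 lay under the lowest value of either other group. Group means were -0.13 ± 0.70 (SD, n = 8), -0.48 ± 0.49 (n = 7) and -0.74 ± 0.32 (n = 7).

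PRF1 encodes perforin, which opens the target cell membrane. In healthy dogs it varied least among the 3 granule genes, from -0.35 to 0.72. It ran from -0.23 to 1.24 at 0 and from -0.69 to 0.44 at 6 months, with medians of 0.05 in ctrl, 0.08 and 0.19. Group means were 0.13 ± 0.40 (SD, n = 8), 0.24 ± 0.51 (n = 7) and 0.09 ± 0.37 (n = 7). The groups overlapped over most of their range.

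Among the receptors, KLRD1 encodes CD94, which pairs with NKG2 chains on NK cells and on part of the CD8+ T cells. Its log2 ratio ran from -1.50 to 1.43 in ctrl (median -1.05), from -1.44 to 0.43 at 0 (median -0.12) and from -1.78 to 0.40 at 6 months (median -0.80). Of the 8 healthy dogs, 5 were at -0.89 or lower and the other 3 were above 0. Group means were -0.48 ± 1.14 (SD, n = 8), -0.25 ± 0.60 (n = 7) and -0.78 ± 0.68 (n = 7). The second KLRD1 probe followed the first closely, with r = 0.95 over the 22 arrays for the deviations from the group means.

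NCR1 ran from -0.40 to 1.40 in ctrl, from -0.69 to 2.14 at 0 and from -0.82 to 2.18 at 6 months, and 1 array at 6 months was written as exactly 0. NCR3, which encodes the activating receptor NKp30, had a log2 ratio from -0.43 to 1.23 in ctrl (median 0.13), from -0.55 to 1.09 at 0 (median 0.24) and from -1.83 to 0.89 at 6 months (median -0.13). The value of -1.83 belonged to dog 4 after ASIT. Group means were 0.27 ± 0.49 (SD, n = 8), 0.15 ± 0.55 (n = 7) and -0.16 ± 0.89 (n = 7).

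EOMES had the tightest values in healthy dogs, from -0.26 to 0.32 (median 0.15). They ran from -0.63 to 0.47 at 0 (median -0.29) and from -1.58 to 0.20 at 6 months (median -0.59). Group means were 0.07 ± 0.22 (SD, n = 8), -0.17 ± 0.41 (n = 7) and -0.64 ± 0.71 (n = 7). The arrays above background after ASIT were those of dogs 1, 2 and 3, at 0.20, -0.02 and -0.59. The arrays of dogs 4, 5, 6 and 7, all on slide 6 and none well above background in Cy5, gave -1.58, -0.07, -1.48 and -0.91.

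Before ASIT, no member passed the test against healthy dogs (0 vs. ctrl), with 3 of 6 genes higher and 3 lower. Of the member probes, limma called none at an adjusted p under 0.05 (Benjamini-Hochberg over all 38286 probes tested, of which 16 were called, 0.0418%). None had an unadjusted p under 0.05, against 11.7% of all probes. The largest differences in each direction were those of GZMK and GZMA. GZMK was lower at 0 by 0.35 on the log2 scale (difference -0.35, SE 0.27, limma adjusted p = 0.67, exact permutation p = 0.29, 2-sided). GZMA was higher by 0.34 (SE 0.46, limma adjusted p = 0.83, exact permutation p = 0.52). The 95% intervals of these log2 differences ran from -0.90 to 0.20 and from -0.60 to 1.28, so both intervals held differences of either sign. With 1 dog left out, GZMK ran from -0.52 (without dog 3) to -0.15 (without ctrl dog 8) and GZMA from 0.14 (without ctrl dog 7) to 0.65 (without ctrl dog 8). The groups overlapped for all 8 probes; over all probes they did not overlap for 0.219%.

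After ASIT, 6 of 6 genes had a lower mean than ctrl, where 56.35% of all probes did (6 months vs. ctrl). These genes varied together, as given below, and EOMES, near background after ASIT, is among them. EOMES and GZMK had an unadjusted p under 0.05. No member probe was called at an adjusted p under 0.05, and no probe of the array was (0%). EOMES was lower by 0.71 on the log2 scale (difference -0.71, SE 0.24, 95% interval -1.21 to -0.21, limma p = 0.0076, adjusted p = 0.65, exact permutation p = 0.021). At 6 months it was well above background on 3 of 7 arrays in Cy5 and on the same 3 in Cy3, so this difference rests in part on ratios of signals near background and no fold is given. GZMK was lower by 0.61 (difference -0.61, SE 0.27, 95% interval -1.16 to -0.06, limma p = 0.032, adjusted p = 0.68, exact permutation p = 0.033), a fold of 0.66. These were 2 of 8 member probes with an unadjusted p under 0.05 and lower after ASIT, against 3.11% of all probes tested (7.2% in either direction), and they were among 21 exact tests of 7 genes in 3 comparisons.

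The EOMES difference had an exact p of 0.0073 to 0.045 when any 1 dog was left out. The EOMES reference signal itself, from the same pooled RNA on every array, had a mean log2 Cy3 of 7.72 in ctrl, 6.37 at 0 and 6.00 at 6 months, and its part in the difference was not tested. With normexp background correction the difference was -0.06 for EOMES (exact permutation p = 0.14) and -0.26 for GZMK (exact permutation p = 0.36). GZMK was -0.37 with Cy5 alone (exact permutation p = 0.30) and -0.59 with the series matrix (exact permutation p = 0.061). EOMES was -1.185 with Cy5 alone (exact permutation p = 0.0056), where 5947 of all probes were called, and -0.75 with the series matrix (exact permutation p = 0.015). For GZMK, leaving out ctrl dog 5, 6 or 8 or the later array of dog 4, 5, 6 or 7 took the exact p to between 0.053 and 0.069, with differences of -0.61 to -0.40, and the smallest difference was without ctrl dog 8. With the slide as a random block, 1 of the 8 member probes, EOMES, had an unadjusted limma p under 0.05, and with the scan day as a random block 0 had.

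No other member passed either test against ctrl after ASIT. NCR3 differed by -0.42 (SE 0.32), KLRD1 by -0.30 (SE 0.41), GZMA by -0.19 (SE 0.46) and PRF1 by -0.04 (SE 0.22), all log2 differences with limma adjusted p of 0.75 to 0.97. NCR3 was -0.15 without the later array of dog 4, and KLRD1 was -0.024 without ctrl dog 8. The sign turned with normexp for GZMA (0.034) and KLRD1 (0.023), and without ctrl dog 8 for GZMA (0.12). For PRF1 it turned with the series matrix (0.020), with Cy5 alone (0.60) and without the later array of dog 4 (0.086). NCR1 differed by 0.10 (SE 0.46, limma adjusted p = 0.97), but none of the 7 later arrays measured it above background, and no fold is given. The groups overlapped for all 8 probes, where 0.11% of all probes did not overlap.

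**Figure D2:**
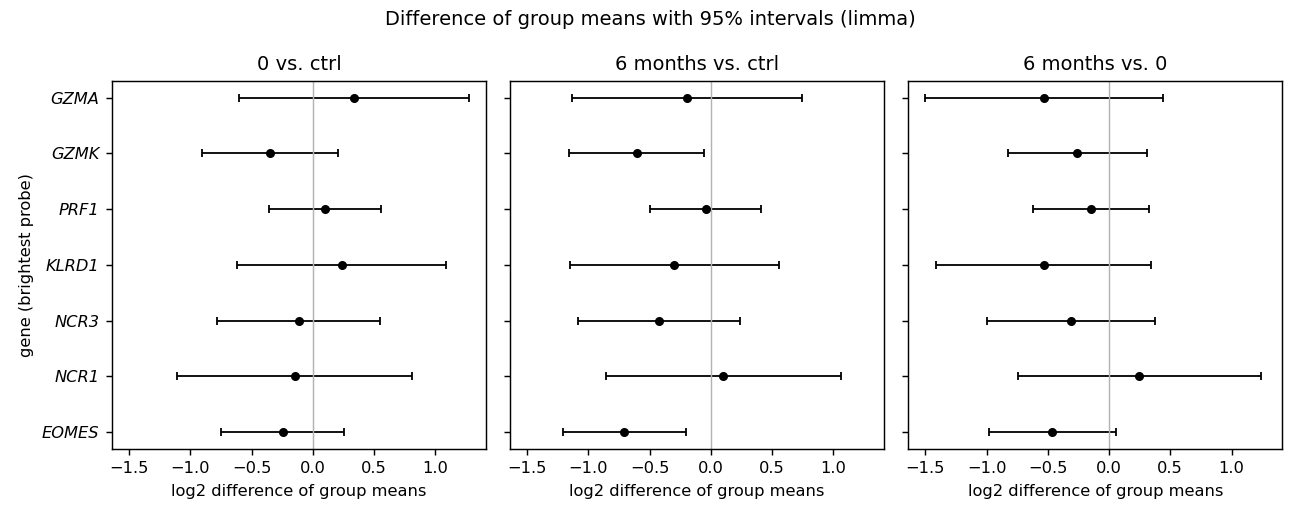
Log2 difference of group means (x axis) for the brightest probe of each gene in the 3 comparisons, with 95% intervals from limma. Every interval holds 0 except those of EOMES and GZMK in 6 months vs. ctrl.

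Over therapy, 6 of 6 genes, EOMES near background among them, had a lower mean after ASIT, where 48.62% of all probes did. No member was called (6 months vs. 0). No probe of the array was called either (0%), and the median log2 difference over all probes was 0.01. None of the 8 member probes reached an unadjusted p under 0.05, against 5.96% of all probes, and the groups overlapped for all 8, where 0.0183% of all probes did not. With the dog as a replicate block, 1 of the 8 did, the second KLRD1 probe, as did 2511 of the 38286 probes tested. Its exact sign-flip permutation p over the 7 dogs was 0.094. Without dog 1, dog 2 or dog 5, EOMES, near background after ASIT, had an unadjusted limma p under 0.05. The paired change, after minus before, had a mean of -0.53 ± 0.96 (SD, n = 7 dogs) for GZMA and -0.54 ± 0.85 for KLRD1. It was -0.31 ± 0.85 for NCR3, -0.26 ± 0.44 for GZMK and -0.15 ± 0.52 for PRF1. Exact sign-flip permutation tests over the 7 dogs gave p = 0.20 for GZMA, 0.14 for KLRD1, 0.39 for NCR3, 0.19 for GZMK and 0.52 for PRF1, where the smallest p that 7 dogs allow is 0.016. The 95% intervals of the log2 differences were -1.50 to 0.44 for GZMA, -1.41 to 0.34 for KLRD1 and -0.62 to 0.32 for PRF1. With 1 dog left out, the mean difference ran from -0.76 to -0.33 for GZMA, from -0.75 to -0.41 for KLRD1, from -0.37 to -0.17 for GZMK, from -0.50 to -0.11 for NCR3 (the latter without dog 4) and from -0.25 to -0.038 for PRF1 (the latter without dog 3). GZMA was higher after ASIT in 2 of 7 dogs, KLRD1 in 2, and GZMK, PRF1 and NCR3 in 3 each. EOMES had a mean change of -0.46 ± 0.85, with -0.63 without dog 1 and -0.24 without dog 6, but in dogs 4 to 7 its later signal was above background in neither channel, so it is left out of the counts by dog. The dog number of a later array is that of its source name and characteristics; the titles of all 7 later arrays name patient 1, and each paired value rests on the former.

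The direction of the change differed between dogs. Over the 5 genes other than NCR1 and EOMES, dog 1 was higher after ASIT for 5 of 5 (median change 0.46) and dog 2 for 4 of 5 (0.70). Dogs 3, 4 and 5 were lower for 5 of 5 genes (median change -0.84, -1.30 and -0.57), dog 6 for 4 of 5 (-0.55) and dog 7 for 2 of 5 (0.10). Dogs 1 and 2 were the pair on slide 3, dog 3 had both arrays on slide 4, and dogs 4 to 7 had arrays on 2 slides.

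**Figure D3:**
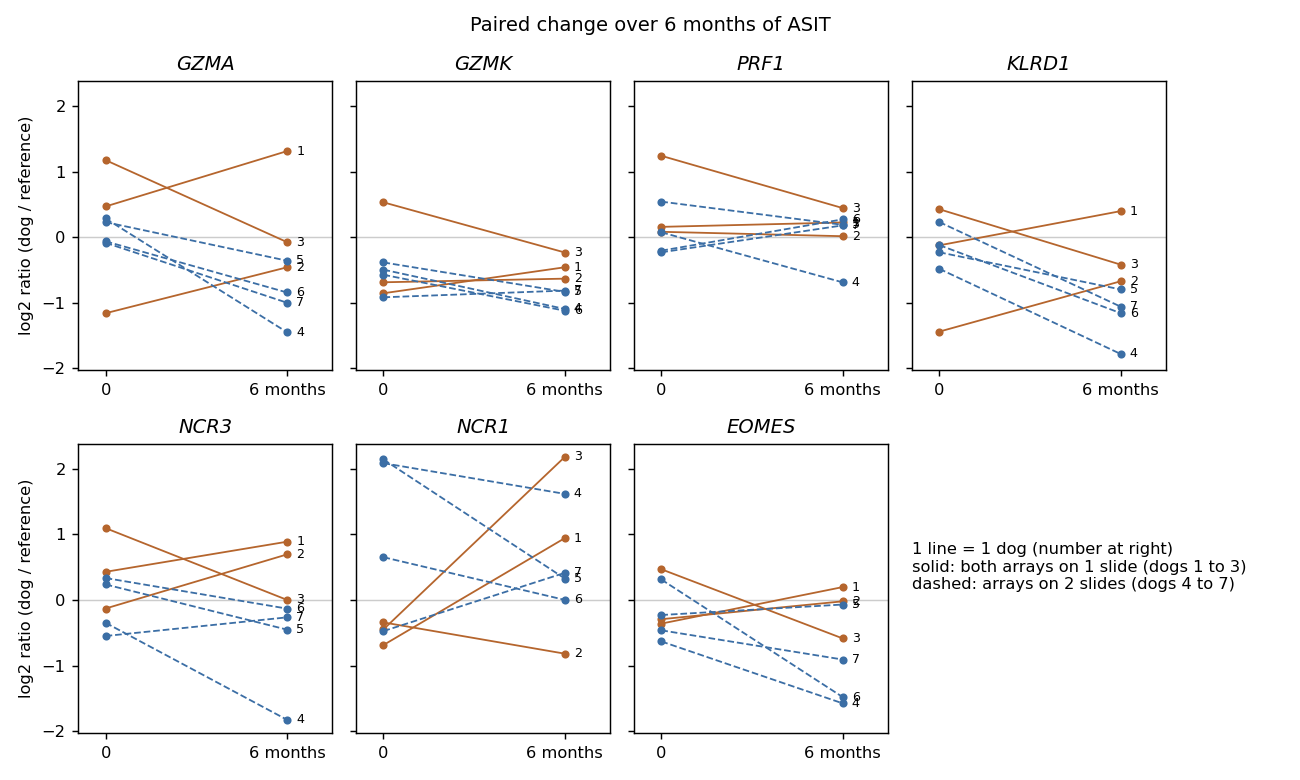
Log2 ratio of dog to reference (y axis) at 0 and at 6 months of therapy, 1 line per dog, for the brightest probe of each gene. Solid lines are dogs 1 to 3, whose arrays share a slide, and dashed lines are dogs 4 to 7; for GZMA and KLRD1, all 4 dashed lines go down and the solid lines go both ways. At 6 months, EOMES in dogs 4 to 7 and NCR1 in all dogs were not above background.

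The slide moved with this result for some genes. For GZMA, the mean change was 0.10 in dogs 1 to 3, whose arrays shared a slide, and -1.003 in dogs 4 to 7. For KLRD1 it was 0.15 and -1.05, and for NCR3 0.06 and -0.59. GZMK differed less, with -0.10 and -0.37, and PRF1 lay the other way, with -0.27 and -0.06. EOMES had -0.08 and -0.76, with its later signal in dogs 4 to 7 above background in neither channel. Within slide 3, the mean difference after minus before was 0.77 for GZMA, 0.65 for KLRD1, 0.64 for NCR3, 0.41 for EOMES and 0.23 for GZMK, with PRF1 close to 0. Within slide 4, the later array of dog 3 less the mean of the earlier arrays of dogs 3 and 4 was -0.80 for GZMA, -0.39 for KLRD1, -0.37 for NCR3, -0.50 for EOMES, -0.25 for GZMK and -0.21 for PRF1. Only slides 3 and 4 held arrays of both times, so a fit with the slide as a fixed block rests on these within-slide differences alone. It is no separate result for all 7 dogs. The log2 differences in it were 0.14 for GZMA, 0.23 for KLRD1, 0.24 for NCR3, 0.05 for EOMES and 0.03 for GZMK, each with the sign turned, and -0.09 for PRF1, which kept its sign. In dogs 4 to 7, therapy and slide cannot be told apart.

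The members varied together from dog to dog. For the deviations from the group means over the 22 arrays, GZMA and KLRD1 had r = 0.93, GZMA and GZMK r = 0.79, and PRF1 correlated with the others between 0.30 and 0.64, NCR1 left out. These correlations describe arrays that share a reference pool, slides and a normalization. NCR1 correlated with no other member above 0.05. With NCR1 left out, ctrl dog 8 was the highest of the 8 healthy dogs for 5 of 6 genes and above the group mean for all 6. Dog 3 was highest before ASIT for 6 of 6 genes, and dog 4 was lowest after ASIT for 5 of 6, EOMES among them, which was not above background on that array. In ctrl dogs 2 and 3, no gene was above the group mean. Blood is a mixture of cells, and in these samples fewer cytotoxic cells and less RNA per cell cannot be told apart.

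**Figure D4:**
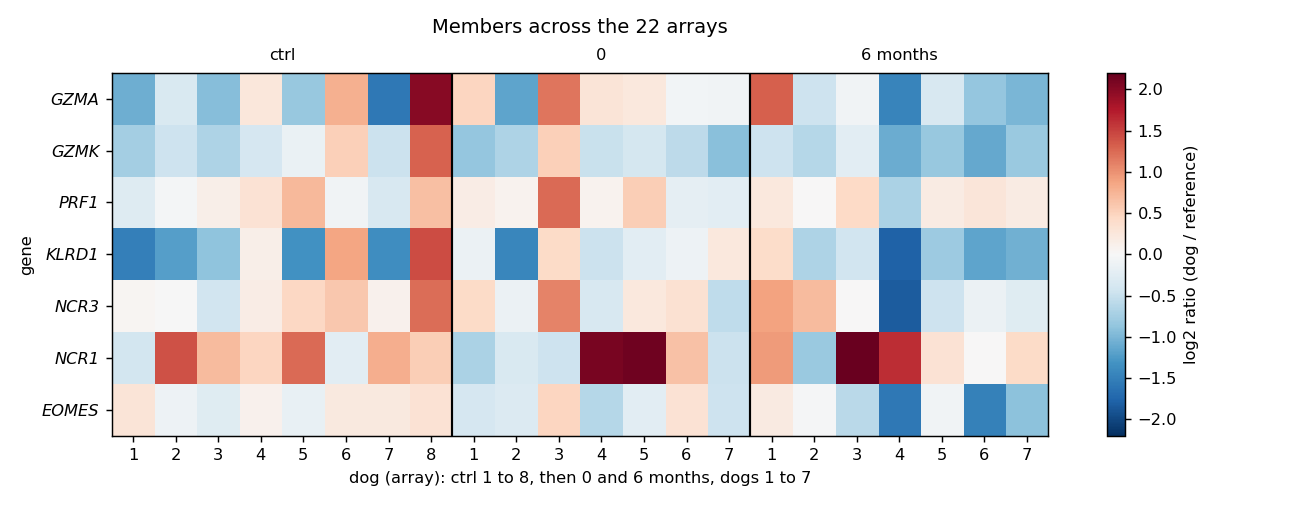
Log2 ratio of dog to reference (colour scale) for the 7 genes (rows) on the 22 arrays (columns: ctrl, 0, 6 months). Ctrl dog 8, dog 3 before ASIT and dog 1 after ASIT are red, and dog 4 after ASIT is blue, for most genes other than NCR1.

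The genes whose profile was most like that of the members were IL12RB2, a chain of the interleukin-12 receptor (r = 0.91), KLRK1, which encodes the activating receptor NKG2D (r = 0.89), the chemokine CCL4 (r = 0.88), ETFB, of mitochondrial electron transfer (r = 0.88), and the protease HTRA1 (r = 0.80). This is Pearson's r with the mean of the members' scaled deviations over 22 arrays, among the 19946 probes whose Cy5 and Cy3 were both above background on each array. With NCR1, whose signal lay near background, left out of the members, the order was IL12RB2 (r = 0.93), CCL4 (0.92), KLRK1 (0.91), ETFB (0.85) and CD96 (0.84), an adhesion receptor of T and NK cells, with HTRA1 at 0.83.

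T cell and B cell markers were followed beside the members. The median log2 ratio of 9 T cell genes ranged from -0.44 to 0.27 in ctrl, -0.66 to 0.87 at 0 and -0.50 to 0.39 at 6 months. Dog 3, the highest for the members before ASIT, was also the highest for the T cell genes at 0.87, and its T cell median changed by -1.02 over therapy. In dogs 4, 5, 6 and 7 it changed by -0.32, 0.16, 0.18 and -0.12, where 5, 5, 4 and 2 of the 5 members other than NCR1 and EOMES were lower after ASIT. In dogs 1 and 2 it changed by 0.04 and -0.50, where 5 and 4 of the 5 members were higher. The median of 7 B cell genes changed by -0.12, 0.22, -0.59, -0.87, -0.17, -0.14 and -0.43 in dogs 1 to 7. The monocyte median changed by 0.78 in dog 4 and 0.86 in dog 7, and by -0.22 to 0.26 in the other dogs. The neutrophil median changed by 0.99 in dog 4, and by -0.49 to 0.28 in the other dogs. The median of 4 platelet genes changed by 0.29, 0.03, -0.70, 0.23, 0.86, 1.07 and 0.71 in dogs 1 to 7, and the erythroid median by 0.28, 0.36, -0.59, -0.69, 1.01, 1.252 and -0.0011. All 4 platelet genes were lower at 0 than in ctrl (median -0.48) and all 4 were higher at 6 months than at 0 (0.26), with none called. The 5 erythroid genes had a median log2 difference of 0.49 in 0 vs. ctrl and of 0.93 in 6 months vs. ctrl, with none called. The 5 eosinophil and basophil genes had a median of 0.49 in 0 vs. ctrl and of 0.53 in 6 months vs. ctrl, each with 4 of 5 higher and 1 lower, and none was called. Their median changed by 0.36, -0.43, 1.89, 0.84, -0.27, -1.36 and 0.26 in dogs 1 to 7. The part of these cells in the member values was not tested.

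Of 48 further genes of the cytotoxic pathway with a tested probe, none was called in any of the 3 comparisons. Their median log2 difference from ctrl was 0.02 at 0 and -0.10 at 6 months, where all probes had -0.02 and -0.04. Between 0 and 6 months it was -0.09, where all probes had 0.01. An unadjusted limma p under 0.05 was found for 2 of the 48 in each comparison (4.17%), against 11.7%, 7.2% and 5.96% of all probes. These were KLRG1, PRDM1, CTSW, ITGAL, CD2 and CCL3. In the receptors and adaptors, 10 of 14 genes were lower after ASIT than before it, with a median of -0.27. In the same comparison, 4 of 11 granule genes were lower and 7 higher (median 0.036), 6 of 12 transcription factors and cytokine receptors were lower and 6 higher (median -0.057), and 7 of 11 ligands, chemokines and homing receptors were lower and 4 higher (median -0.19). CD2, an adhesion receptor of T and NK cells, differed by -0.48 (SE 0.20, unpaired exact permutation p = 0.022, limma adjusted p = 0.69). It was the only gene of these 14 with an unadjusted limma p under 0.05. In 0 vs. ctrl, KLRG1, an inhibitory receptor of mature killer cells, was higher by 0.80 (SE 0.34, exact permutation p = 0.076, limma adjusted p = 0.33).

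Of the 11 granule genes tested, 7 were lower after ASIT than in ctrl (median -0.13), and CTSW, a protease of cytotoxic cells, differed by -0.61 (SE 0.26, exact permutation p = 0.027, limma adjusted p = 0.68). Among transcription factors and cytokine receptors, PRDM1, which drives terminal differentiation of lymphocytes, differed by -0.37 in 0 vs. ctrl (SE 0.17, exact permutation p = 0.039, limma adjusted p = 0.40). Among ligands, chemokines and homing receptors, the integrin chain ITGAL differed by -0.47 in 6 months vs. ctrl (SE 0.21, exact permutation p = 0.023, limma adjusted p = 0.68), and the chemokine CCL3 by -0.84 in 6 months vs. 0 (SE 0.35, unpaired exact permutation p = 0.075, limma adjusted p = 0.71).

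Outside the naming rule, probes were found whose description in the files, and not their gene name, names KLRB1 (the NK receptor CD161) and a sequence similar to NKG7 (a granule membrane protein). Both were above background in Cy5 on all 22 arrays. KLRB1 had a mean log2 ratio of -0.67 ± 1.26 (SD, n = 8) in ctrl, -0.54 ± 0.76 (n = 7) at 0 and -0.99 ± 0.72 (n = 7) at 6 months. Its difference was 0.13 in 0 vs. ctrl (SE 0.46), -0.32 in 6 months vs. ctrl (SE 0.46) and -0.44 in 6 months vs. 0 (SE 0.47), with limma adjusted p of 0.95, 0.89 and 0.93. The NKG7-like probe differed by -0.02, -0.10 and -0.09 in the same comparisons, with limma adjusted p of 0.99, 0.94 and 0.97. Over 22 arrays their deviations correlated with the mean of the 6 members other than NCR1 by r = 0.89 and 0.86.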

How the data were processed

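The authors deposited the scanner output of 22 two-colour Agilent canine arrays, with raw and processed intensities of each spot (background-subtracted and Lowess-normalized) and the log10 ratio of Cy5 to Cy3, and a series matrix of such log10 ratios. Per the labels the software was Agilent Feature Extraction 10.7.3.1, while the file headers give 10.10.1.1. The series matrix equalled the scanner files for the 14 cAD arrays and correlated with them by r = 0.711 to 0.844 for the 8 ctrl arrays.

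The log10 ratios were converted to log2, 208 outlier spots were left out and spots of a probe were averaged. The 38286 probes whose Cy5 was well above background on 7 or more arrays were tested in 1 limma fit of the 3 groups (limma 3.58.1, R 4.3.3), with Benjamini-Hochberg adjustment. The gene differences, read from the brightest probe, were also tested by 2-sided exact permutation. Paired changes were tested by sign flips over dogs, paired by the dog number in the source name and characteristics, since the methods say that each dog was sampled at both times; the titles of the later arrays all name patient 1. Over all tested probes, deviations of the earlier and later array of a dog correlated by -0.04 to 0.56, and in 4 of 7 dogs the own later array correlated best. The alternatives were normexp correction (offset 50) with loess, processed signals, the series matrix, Cy5 alone, other filters on dim probes, the methods' one-way test, the slide, scan day or dog as a block, and each dog left out. Scan day as a fixed block, single genes without each dog in the comparisons with ctrl, and probes matched by description were added after seeing the data. Fits were tested on simulated data. The precision is limited by the number of arrays and by signal over background. P-values of group differences measure the spread between arrays within groups, in which dogs, slides and technical variation are not separated. Sign-flip p-values measure the spread of the paired changes between dogs.

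The genes named are the members, the genes of 4 pathway lists with the smallest limma p under 0.05 (at most 3 per list, direction and comparison) and the 5 named genes most like the members. CD96 was added from the same ranking with NCR1 left out. Members and lists were chosen with earlier results of these data known. Gene names are those of the array files, and all 7 symbols found are also in the RefSeq table of dog genes; its coordinates, of another build, were not used.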

Additional observations from a re-analysis of the deposited data

Results flagged for a closer look

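In 21 groups of 7 or 8 arrays, made up of 7 genes in 3 groups, 2 held an array set apart from the others of its group by a gap that is large against the range of that group. Chance alone flags about 1 in 20 groups. The log2 ratio of GZMK in dog 3 before ASIT was 0.53, and the same array was the highest of its group for the other 5 genes besides NCR1. The log2 ratio of PRF1 in dog 4 after ASIT was -0.69, and that array was also the lowest of its group for 4 further genes, EOMES among them, which was not above background there.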

How the results depend on the processing

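No member probe was called in any of the 3 comparisons under any alternative tried, the dog as a replicate block and each dog left out included (0 in all), except that Cy5 alone called 1, EOMES, in 6 months vs. ctrl, where 5947 of all probes were called. Cy5 alone called 8093 of all probes in 0 vs. ctrl and 0 in 6 months vs. 0. Every other setting called between 0 and 440 of all probes in a comparison, so 0 of 8 members is near that share. The replicate block changed no call at an adjusted p under 0.05. Sign flips over paired dogs give an unadjusted p only and could change none. Among the brightest probes, the largest paired difference was that of KLRD1 (-0.54). Of 388 values of single genes under the alternatives, 338 kept their direction and their side of the threshold for an unadjusted exact permutation test (limma's in block fits), 35 changed sign, 12 lost their place under it and 3 gained one; the cause was not tested.

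In 0 vs. ctrl, NCR1 turned to 0.057 with the series matrix and to 0.53 with Cy5 alone. In 6 months vs. ctrl, normexp gave 0.034 for GZMA, 0.023 for KLRD1 and -0.070 for NCR1, and PRF1 was 0.020 with the series matrix and 0.60 with Cy5 alone. In 6 months vs. 0, the slide as a fixed block gave 0.14 for GZMA, 0.035 for GZMK, 0.23 for KLRD1, 0.24 for NCR3 and 0.047 for EOMES. The scan day as a fixed block gave 0.25 for GZMA, 0.18 for GZMK, 0.072 for PRF1, 0.18 for KLRD1, 0.28 for NCR3 and 0.0091 for EOMES. Neither fit draws on the later arrays of dogs 4 to 7, whose slide and scan day held no earlier array. Cy5 alone gave 0.034 for PRF1 and -0.30 for NCR1 there, and normexp 0.035 for EOMES.

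With 1 dog left out, genes that changed sign ranged as follows. In 0 vs. ctrl they were PRF1 (-0.064 to 0.19), NCR1 (-0.44 to 0.036) and NCR3 (-0.27 to 0.021). In 6 months vs. ctrl they were GZMA (-0.48 to 0.12), PRF1 (-0.11 to 0.086) and NCR1 (-0.15 to 0.35). In 6 months vs. 0 it was NCR1 (-0.15 to 0.59). Without dog 2, KLRD1 passed in 6 months vs. 0 (-0.75, exact permutation p = 0.045), in a test that ignored the pairing of dogs. Without dog 3 at 0, EOMES passed in 0 vs. ctrl (-0.35, exact permutation p = 0.035), as it did with Cy5 alone (-0.68, exact permutation p = 0.0028). NCR1 and EOMES were near background, which limits their ratios.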
